A study of Mus musculus with 2 samples.

Results

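Interferons are cytokines that switch on a large set of genes against viruses and intracellular parasites. Type I interferons signal through the receptor pair Ifnar1 and Ifnar2, and interferon gamma through Ifngr1 and Ifngr2. Janus kinases on both receptors activate STAT proteins, which, with interferon regulatory factors, bind short elements in target promoters. MHC class I molecules are among the targets: a heavy chain (in mice H2-K1 or H2-D1) pairs with the small subunit B2m, is loaded in the endoplasmic reticulum with peptides that the transporter Tap1/Tap2 carries in and tapasin (Tapbp) helps to fit, and shows them at the cell surface. In the pregnant uterus such molecules are read by natural killer cells, and interferon-stimulated genes are known to be expressed in the uterine stroma around implantation.

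The 34 genes described here were listed by symbol and include 17 antiviral effectors, 11 signalling factors and 6 genes of antigen presentation. A gene entered where the platform annotation gave a probe set that symbol and no other, which held for 31 of the 34, among 12393 genes on the array. Isg15, Ifi44 and Ddx58 had no such probe set. The values come from 2 Affymetrix arrays of uterine stromal cells, the connective tissue cells beneath the uterine epithelium, which were freed from the uterine horns by enzymes on day 5 of pregnancy. One array held RNA of a conditional knockout and the other RNA of floxed controls, each from the pooled cells of 3 mice, so there was 1 array per group and no test. In the titles the groups are Hif1 cKO and Hif1 flox control, in the genotype field Hif2 alpha-null and Hif2 alpha-intact, and in the breeding note Hif1 floxed mice crossed with PRcre mice to remove Rac1. The array of the knockout is therefore called knockout-labelled throughout. PRcre drives the recombinase from the progesterone receptor gene, so it acts in cells that have used that gene, and the strain and age of the mice were not given in the sources used here.

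Neither Epas1 (which encodes Hif2 alpha), Hif1a nor Rac1 was depleted to background on the knockout-labelled array. The brightest probe set of each had a log2 ratio of 0.39, 1.10 and -0.46, in that order. The next Rac1 probe set had signals of 332 knockout-labelled and 664 control, just past 2-fold lower. The next probe sets of Hif1a were higher, with log2 ratios of 1.38 and 0.52. Each value is a MAS5 signal, an intensity on a linear scale, and signals below 19.7 (the 40th percentile of both arrays) were raised to that floor before the log2 ratio, knockout-labelled over control, was taken. A gene was read from its brightest probe set and called at 2-fold. The only error available was the disagreement between 2 probe sets of a gene, a root mean square of 0.70 per log2 ratio over 2660 genes, which leaves out mice, pools and arrays. RNA ends also differed, since the b-actin 3' to 5' signal ratio was 16.0 on the knockout-labelled array and 2.27 on the control array, and the Gapdh ratio was 7.25 on the knockout-labelled array and 1.49 on the control array. All 15 stroma markers passed the floor on one array or both. At their brightest probe sets, Vim had signals of 7436 knockout-labelled and 4701 control, and Pdgfra 2213 knockout-labelled and 2215 control. Other probe sets gave log2 ratios of 0.26 and -0.58 for Vim and -1.70 for Pdgfra.

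The 3 roles differed in how many members were past 2-fold on these 2 arrays. Of the 6 antigen presentation genes, 4 were lower and none higher by 2-fold or more on the knockout-labelled array, where the median log2 ratio was -1.50. Without the probe sets that can match other transcripts (suffixes _s_at, _x_at and _a_at) 3 of the genes could be read and 2 of them were past 2-fold lower. Of all genes so read, 15.1% were. At a size of 3-fold 1 of the 6 was lower, and the share of all genes at that size was not counted. Of 14 antiviral effectors compared, 2 were lower and 1 higher by that size (median -0.16). None of the 10 signalling factors compared was past 2-fold (median -0.33). Of all 8593 genes compared (those that passed the floor on either array), 13.0% were lower and 6.21% higher by 2-fold or more, and their median was -0.10. The effectors, with 2 of 14 lower, were therefore near the share of all genes, and the split of called genes between higher and lower depended on the scaling. Higher genes were 32.3% of all genes past 2-fold as deposited, 46.3% after quantile normalization, 46.9% after removal of the trend of ratio on signal, and 63.1% after median centring. The median of all genes was then 0.03, 0.02 and 0.16. The antigen presentation median minus the median of all genes was -1.40 as deposited, and -1.40, -1.39 and -1.38 under those 3 scalings.

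**Figure D1:**
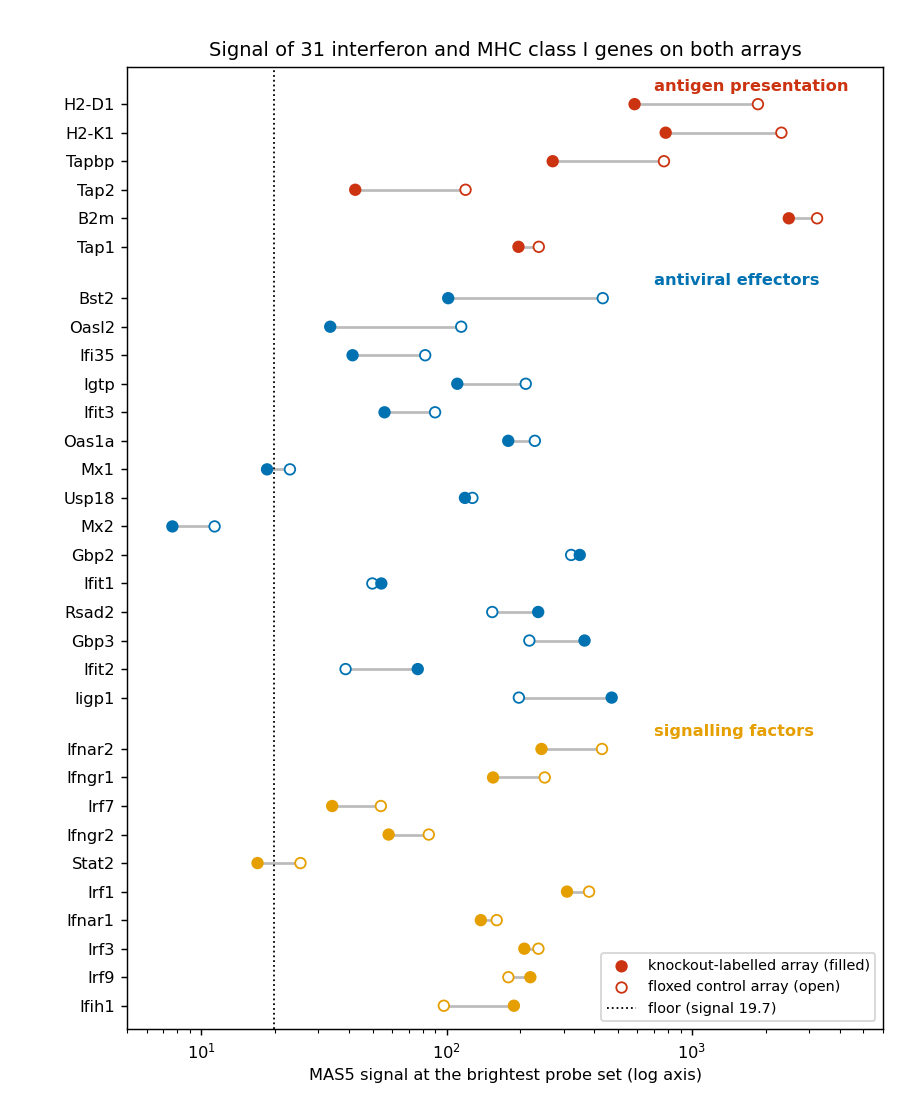
MAS5 signal (log axis) of the 31 members at their brightest probe set, with the knockout-labelled array as filled points, the floxed control array as open points and the floor as a dotted line. All 6 antigen presentation genes have the filled point to the left, while the antiviral effectors and the signalling factors lie on both sides.

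Promoters are shown for 4 of the antigen presentation genes (H2-K1, H2-D1, Tapbp and, though within 2-fold, B2m) and for the lower effectors Bst2 and Oasl2. STAT proteins and interferon regulatory factors can bind short elements in the promoters of interferon targets. Tap2 is named only. The promoters come from RefSeq (GRCm38.p6) and run from 250 bases before the annotated start to 50 after it. Capitals mark matches on either strand to GAAA and GAAA with any 2 bases between (the core of the interferon-stimulated response element), GAANNGAAA (a form with shorter spacing, which the classical class I promoters carry), TTCNNNGAA (the gamma-activated site bound by STAT dimers) and GGGGATTCC (part of the kappa B site of class I promoters). The lines give H2-K1 at chr17:34000298-34000597 on the minus strand, H2-D1 at chr17:35262844-35263143 on the plus strand, B2m at chr2:122147437-122147736 on the plus strand, Tapbp at chr17:33919228-33919527 on the plus strand, Bst2 at chr8:71537423-71537722 on the minus strand and Oasl2 at chr5:114896684-114896983 on the plus strand.
H2-K1: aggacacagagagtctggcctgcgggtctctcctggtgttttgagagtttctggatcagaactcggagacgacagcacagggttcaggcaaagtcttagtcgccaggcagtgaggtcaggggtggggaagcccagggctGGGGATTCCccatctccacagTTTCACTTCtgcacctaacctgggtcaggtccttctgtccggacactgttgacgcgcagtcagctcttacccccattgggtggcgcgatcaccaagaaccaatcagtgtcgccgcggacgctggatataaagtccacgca
H2-D1: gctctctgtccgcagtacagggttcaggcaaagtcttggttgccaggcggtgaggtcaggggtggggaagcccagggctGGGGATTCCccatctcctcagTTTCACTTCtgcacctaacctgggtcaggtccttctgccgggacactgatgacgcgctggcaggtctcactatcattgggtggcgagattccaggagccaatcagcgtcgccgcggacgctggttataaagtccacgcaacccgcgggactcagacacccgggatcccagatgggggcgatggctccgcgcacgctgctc
B2m: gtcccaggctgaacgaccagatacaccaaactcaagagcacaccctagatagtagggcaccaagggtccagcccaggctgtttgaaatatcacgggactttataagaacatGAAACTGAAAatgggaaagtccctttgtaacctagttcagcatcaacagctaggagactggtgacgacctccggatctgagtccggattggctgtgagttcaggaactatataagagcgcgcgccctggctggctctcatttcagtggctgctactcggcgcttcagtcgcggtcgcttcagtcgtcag
Tapbp: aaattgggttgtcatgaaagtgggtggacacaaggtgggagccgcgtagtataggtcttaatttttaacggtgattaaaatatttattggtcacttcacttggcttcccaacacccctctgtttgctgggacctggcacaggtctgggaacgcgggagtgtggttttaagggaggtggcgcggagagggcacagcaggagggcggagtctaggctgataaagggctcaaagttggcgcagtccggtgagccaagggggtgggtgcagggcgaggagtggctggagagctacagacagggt
Bst2: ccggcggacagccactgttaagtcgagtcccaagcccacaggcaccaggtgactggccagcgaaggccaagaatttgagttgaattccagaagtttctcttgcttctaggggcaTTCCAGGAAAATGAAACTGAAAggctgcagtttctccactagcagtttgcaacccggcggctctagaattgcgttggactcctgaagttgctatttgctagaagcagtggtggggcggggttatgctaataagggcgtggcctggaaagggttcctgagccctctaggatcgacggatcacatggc
Oasl2: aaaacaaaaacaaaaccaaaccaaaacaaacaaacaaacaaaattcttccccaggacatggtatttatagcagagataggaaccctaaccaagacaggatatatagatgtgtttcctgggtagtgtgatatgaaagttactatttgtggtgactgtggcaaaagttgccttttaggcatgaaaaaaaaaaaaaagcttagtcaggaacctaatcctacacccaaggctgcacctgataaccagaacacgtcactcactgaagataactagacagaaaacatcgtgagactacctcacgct

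The H2-K1 and H2-D1 windows shared an arrangement, with GGGGATTCC and then TTTCACTTC, the reverse of the shorter element. They were identical at 214 of 361 aligned columns, against 161 of 329 for H2-D1 and B2m, the closest other pair shown. GGGGATTCC begins at -111 from the start in H2-K1 and at -171 in H2-D1, so the identity also depends on where the windows lie. H2-K1 has 2 starts in the table, and the first listed is shown. The B2m window had 1 response element, and Bst2 had 2 that overlap each other, the first of which also overlaps a gamma-activated site. The Tapbp and Oasl2 windows held none of these letters. Windows on 1 chromosome were left out of the counts that follow. Of the 34 genes, 29 had a window that was counted, and 13 of these held the response element core, against 3.99% of all 27025 genes with such a window. The shorter form stood in 9 of 29 (8.68% of all genes), TTCNNNGAA in 8 (9.55%) and GGGGATTCC in 2, H2-K1 and H2-D1 (0.296%). A match is a run of letters and no evidence of binding, and both lower genes (Bst2) and genes within 2-fold (Ifit1, Oas1a, Gbp2) held that core.

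H2-K1 and H2-D1, the heavy chains of classical class I molecules, were lower at every measured probe set. At the brightest, H2-K1 had a signal of 782 on the knockout-labelled array, against 2319 on the control array (log2 ratio -1.57). Its other 3 probe sets gave -1.33, -2.17 and a bound of -1.29 or lower. H2-D1 had a signal of 584 on the knockout-labelled array and 1860.1 on the control array (log2 ratio -1.67). Of 9 probe sets of H2-D1, 5 were measured, with log2 ratios from -1.80 to -0.88, and 4 were at the floor on both arrays. Both genes belong to a family of near-identical and highly polymorphic copies, and every H2-K1 probe set carries the suffix _x_at, which marks probes that can match other transcripts, so the signal of one heavy chain cannot be fully told apart from that of the other. H2-D1 has 1 measured probe set without such a suffix, with a signal of 82.3 on the knockout-labelled array and 262 on the control array (log2 ratio -1.67). The haplotype of the mice was not given in the sources used here.

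B2m, the subunit shared by all class I molecules, gave unlike values at its probe sets. The brightest had a signal of 2485 on the knockout-labelled array, against 3241 on the control array, a log2 ratio of -0.38. The other had 574 on the knockout-labelled array and 2809 on the control array, a log2 ratio of -2.29. Both were lower but only 1 was past 2-fold, so the size for B2m was not settled.

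The peptide-loading genes were also lower, by unlike amounts. Tapbp, the tapasin gene, had a signal of 271 on the knockout-labelled array and 769.8 on the control array (log2 ratio -1.51), and its dimmer probe set gave a bound of -0.48 or lower. Tap2, 1 subunit of the peptide transporter, had 42.4 on the knockout-labelled array, against 119.5 on the control array (log2 ratio -1.49), at its only probe set. Tap1, the other subunit, had 196 on the knockout-labelled array and 238 on the control array. Its log2 ratio of -0.28 was within the error, it turned to 0.0037 after median centring, and its other 3 probe sets were at the floor on both arrays. All 6 genes were lower by any amount, where 55.3% of all genes were. Over measured probe sets in place of genes, 11 of 15 were past 2-fold lower, against 13.9% of all measured probe sets, and all 15 were lower by any amount, against 56.0%. Probe sets of 1 gene share their RNA and are not replicates.

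**Figure D2:**
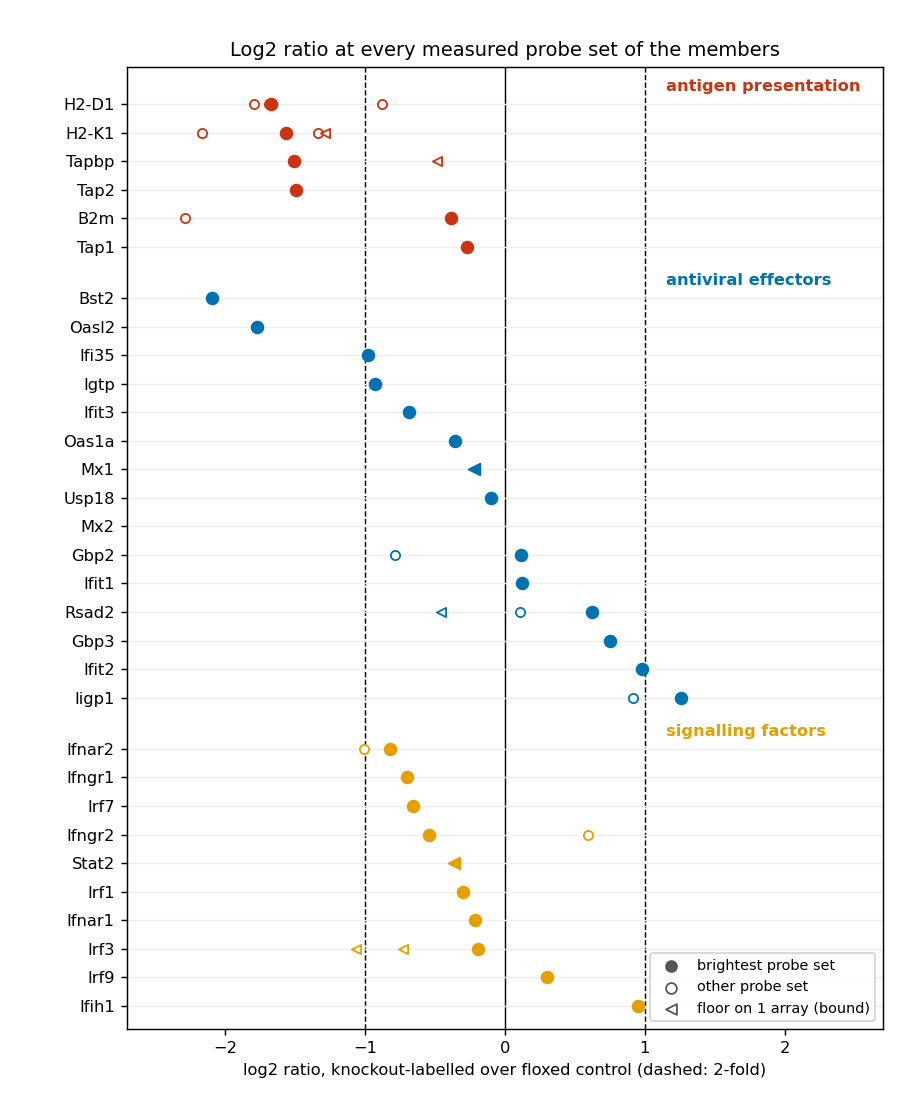
Log2 ratio, knockout-labelled over floxed control, at every measured probe set of each member. Filled symbols are the brightest probe sets, triangles are bounds with 1 array at the floor, and dashed lines mark 2-fold. The measured probe sets of H2-K1 and H2-D1 all lie below 0, B2m spreads from -2.29 to -0.38, and Mx2 has no symbol because it was at the floor on both arrays.

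Further antigen presentation genes were listed beside the members, and Psmb9 and Psme1 lay lowest. The list holds genes of peptide supply and folding, other heavy chains, transcription factors and Cd74. Of 24 listed, 14 were compared, 5 were lower and none higher by 2-fold or more (median -0.52), against 13.0% and 6.21% of all genes. Psmb9, an interferon-inducible catalytic subunit of the immunoproteasome, had a signal of 41.7 on the knockout-labelled array, against 250.1 on the control array (log2 ratio -2.58). Psme1, a subunit of the proteasome activator, had 174 on the knockout-labelled array and 721 on the control array (-2.05). Psmb8, another immunoproteasome subunit, had 139 on the knockout-labelled array and 375 on the control array (-1.43), and Psmb10, the remaining catalytic subunit, was within 2-fold (-0.73). Pdia3, a thiol oxidoreductase of the peptide-loading complex, was lower (-1.08), as was Cd74, the invariant chain of class II molecules (-1.16), which also stands among the myeloid markers. The chaperones of heavy chain folding did not share this direction, with Calr at 0.46 at its brightest and 0.48 and 0.41 at its other probe sets, and Canx at 0.42, -0.91 and 0.75. Psmb8 and Psmb9 have 1 probe set each, as do Psme1, Pdia3 and Cd74.

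Antiviral effectors lay on both sides, and the genes furthest from 0 act at different steps. Bst2, or tetherin, a membrane protein that holds budding virions at the cell surface, had a signal of 102 on the knockout-labelled array, against 433 on the control array (log2 ratio -2.09). Oasl2, an oligoadenylate synthetase-like protein, had 33.6 on the knockout-labelled array and 115 on the control array (-1.77). Iigp1, a GTPase of the IRG family that attacks the vacuoles of intracellular parasites, was on the other side, with 471 on the knockout-labelled array, against 197 on the control array (1.26), and 0.91 at its other probe set. The value of Iigp1 lay within 2 errors (1.40) and those of Bst2 and Oasl2 beyond them. Bst2 and Oasl2 have 1 probe set each.

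Genes of the same family did not share a direction. Among the IFIT genes, whose proteins bind viral RNA, Ifit2 had a signal of 76.3 on the knockout-labelled array and 38.8 on the control array (0.98). Ifit3 had 55.9 on the knockout-labelled array, against 89.8 on the control array (-0.68). Ifit1 had 54.2 on the knockout-labelled array and 49.8 on the control array (0.12). The 3 genes thus spanned both sides of 0, and none was called as deposited. Ifit2 was past 2-fold under the 3 other scalings, at 1.23 to 1.26, and gave 0.20 with the floor at the 60th percentile.

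The interferon-inducible GTPases also lay on both sides of 0, most of them within 2-fold. Igtp, an IRG family regulator, had 111 on the knockout-labelled array, against 210.3 on the control array (-0.93), while Iigp1 of the same family was higher. Of the guanylate-binding proteins, Gbp3 had 365 on the knockout-labelled array and 218 on the control array (0.75). Gbp2 had a log2 ratio of 0.12 where it was brightest and -0.78 at its other probe set, so its direction was not settled. Gbp7, listed outside the members, had 393 on the knockout-labelled array and 91.9 on the control array (2.10), with 1.42 at its other probe set, and it was past 2-fold under all 9 other settings. The other GTPases listed outside the members were within 2-fold where measured, with Ifi47 at 0.26, Irgm1 at 0.03 and Irgm2 at -0.70, and Gbp6 was at least 1.68-fold lower.

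Of the remaining effectors, those above the floor on both arrays were within 2-fold. Oas1a, an enzyme whose product activates RNase L, had signals of 178 on the knockout-labelled array and 229 on the control array (-0.36). Ifi35 had 41.4 on the knockout-labelled array and 81.8 on the control array (-0.98), just inside 2-fold. Usp18, the protease that removes Isg15 from proteins and damps the type I receptor, was nearly equal, with 119 on the knockout-labelled array and 128 on the control array (-0.10). Rsad2, or viperin, an enzyme that makes a chain-terminating nucleotide, gave 0.62 at its brightest probe set (signals of 236 knockout-labelled and 154 control), 0.10 at the next, and a bound of -0.46 or lower at the dimmest. The Mx dynamin-like GTPases were near the floor. Mx1 had 18.5 on the knockout-labelled array, below the floor, and 22.99 on the control array, so only a bound (-0.22 or lower) can be given, and Mx2 was below the floor on both arrays.

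Among 48 further effectors listed beside the members, 32 were compared, 6 were lower and 2 higher by 2-fold or more (median -0.24). The higher genes were Gbp7 and Eif2ak2, the RNA-activated kinase PKR (102 on the knockout-labelled array, 35.1 on the control array, 1.55). The lower ones were Lgals3bp (-1.46), Lgals9, a galectin (-1.40), Adar, an RNA editing enzyme (-1.14), Ifitm2, a membrane protein that blocks viral entry (-1.11), and the chemokines Ccl5 (-1.12), which also stands among the lymphocyte and NK markers, and Cxcl9, a bound of at least 2.17-fold lower. The lower genes were 6 of 32, against 13.0% of all genes, and they were 3, 2 and 3 of 32 after quantile normalization, median centring and removal of the trend. Of all genes 9.54%, 7.79% and 9.27% were lower under these scalings, so the lower further effectors were then near the share of all genes. The higher further effectors were 2 of 32 as deposited, against 6.21% of all genes.

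**Figure D3:**
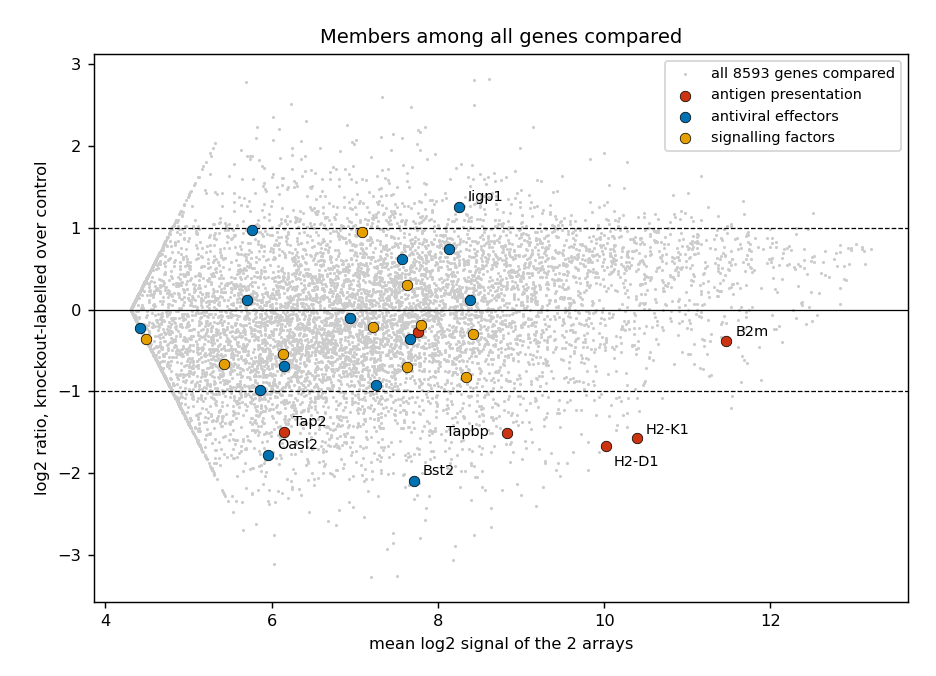
Log2 ratio (knockout-labelled over control) against the mean log2 signal of the 2 arrays for all 8593 genes compared, with the members coloured by role and dashed lines at 2-fold. H2-K1, H2-D1 and Tapbp lie low for genes of high signal, whereas Tap2, Bst2 and Oasl2 sit among genes of lower signal. B2m, also of high signal, lies within 2-fold at -0.38.

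No signalling factor was past 2-fold, and 8 of 10 were lower by any amount, or 6 of 10 after median centring, against 55.3% of all genes as deposited. Of the type I receptor chains, Ifnar2 had a signal of 244 on the knockout-labelled array, against 430.4 on the control array (-0.82), and -1.01 at its other probe set. Ifnar1 had 138 on the knockout-labelled array and 160.1 on the control array (-0.21). Ifngr1, the ligand-binding chain of the interferon gamma receptor, had 155 on the knockout-labelled array and 251 on the control array (-0.70). Its partner Ifngr2 gave -0.54 at the brightest probe set (signals of 58.1 knockout-labelled and 84.7 control) and 0.59 at the other, so its direction was not settled. The receptor chains were thus lower at their brightest probe sets, except that Ifnar1 gave 0.06 after median centring.

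No transcription factor was past 2-fold at its brightest probe set. Irf1, which drives class I genes under interferon gamma, had 309.8 on the knockout-labelled array and 381 on the control array (-0.30). Irf9, the DNA-binding subunit of the ISGF3 complex, had 219.6 on the knockout-labelled array, against 179 on the control array (0.30). Stat2, its partner, was below the floor on the knockout-labelled array (16.96) and just above it on the control array (25.4), a bound of -0.36 or lower. Irf7, the amplifier of type I interferon, had 34.2 on the knockout-labelled array and 54.0 on the control array (-0.66). Irf3, which starts type I interferon transcription, gave -0.19 at its brightest probe set (signals of 208 knockout-labelled and 237 control) and bounds of -1.06 and -0.73 or lower at others, and a further probe set was at the floor on both arrays. The cytosolic RNA sensor Ifih1, or MDA5, was the highest of the signalling factors, with 188 on the knockout-labelled array and 97.5 on the control array (0.95), and it was past 2-fold under the 3 other scalings, at 1.13 to 1.23.

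Of 31 further signalling genes listed, 18 were compared, with 3 lower and 5 higher by 2-fold or more (median 0.09). Of all genes 13.0% were lower and 6.21% higher by that size, so the lower ones were near the share of all genes. Sting1, the adaptor of the cytosolic DNA response, had 21.1 on the knockout-labelled array, against 107 on the control array (-2.35). Jak1, the kinase shared by both interferon receptors, was lower at all 3 of its probe sets (-1.33, -1.26 and -0.34), and Ikbke, a kinase upstream of Irf3, was at least 2.28-fold lower. Higher were Mavs, the mitochondrial adaptor of RNA sensors (1.67), Jak2, the kinase that pairs with Ifngr2 (1.62), Tbk1, a kinase that phosphorylates Irf3 (1.26), and the negative regulators Ptpn2 (1.25) and Socs3 (1.17). Their next probe sets gave 0.02, 0.24, 0.24, 0.71 and 0.75 in that order, none past 2-fold, and the dimmest of Socs3 gave -0.12. Transcripts of the ligands themselves, Ifnb1, Ifna4 and Ifng, were at the floor on both arrays.

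**Figure D4:**
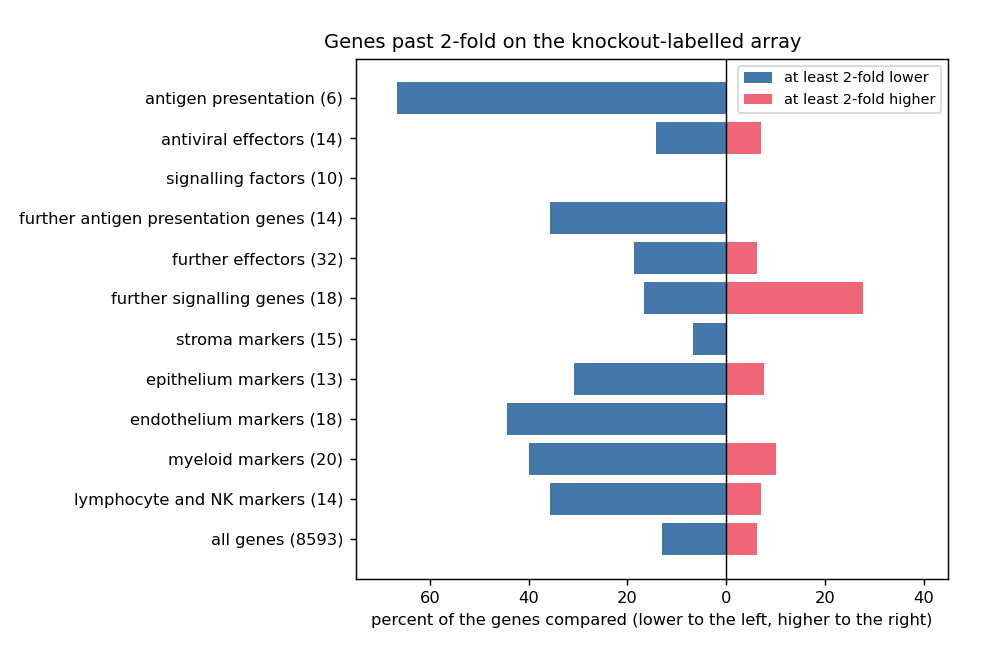
Percent of the genes compared in each list (number in brackets) that were lower (left) or higher (right) by 2-fold or more on the knockout-labelled array. Antigen presentation has 4 of 6 genes lower, and endothelium and myeloid markers each have 8 lower, of 18 and 20, against 1 of 15 stroma markers and 13.0% of all genes. Genes are read at their brightest probe sets.

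Markers of other cell types that use class I and interferon genes were also partly lower on the knockout-labelled array. The counts below stand against 13.0% of all genes lower and 6.21% higher by 2-fold or more as deposited. After median centring these shares were 7.79% and 13.3%. They were 9.54% and 8.22% after quantile normalization, and 9.27% and 8.19% after removal of the trend. With the floor at the 60th percentile they were 9.28% and 6.04%. Of 18 endothelium markers compared, 8 were lower and none higher by 2-fold or more (summed signal 4650 on the knockout-labelled array and 6330 on the control array, median log2 ratio -0.89), with Pecam1 at -2.34, Egfl7 at -1.79, Emcn at -1.58 and Ramp2 at -1.45. The other direction held for 4 of the 18 at their brightest probe sets, Sox17 (0.97), Eng (0.83), Plvap (0.32) and Flt1 (0.07). Other probe sets gave -1.40 for Sox17, -1.85 for Eng, and 0.80 and a bound of -0.43 or lower for Flt1. The direction of Sox17, Eng and Flt1 was therefore not settled. After median centring 5 endothelium markers were lower and 2 higher by 2-fold or more. Of 20 myeloid markers, 8 were lower and 2 higher (summed signal 9663 on the knockout-labelled array and 8860 on the control array, median -0.62). Fcer1g (-2.93), C1qa (-2.73) and Cd68 (-1.95) were lower and Aif1 was at least 4.68-fold lower, whereas Ptprc, the pan-leukocyte antigen, was higher (1.74), as was C1qb at its brightest probe set (1.58), with -2.68 at its dimmest. By any amount 12 of the 20 were lower, against 55.3% of all genes. Higher within 2-fold were H2-Aa (0.92, with -2.83 at its other probe set), Ctss (0.60), Mrc1 (0.55), Csf1r (0.44), Tyrobp (0.26) and Itgam (0.05). Other probe sets of Csf1r gave 0.13 and -0.88. After median centring 5 myeloid markers were lower and 3 higher. Of 14 lymphocyte and NK markers, 5 were lower and 1 higher (summed signal 1371 on the knockout-labelled array and 1678 on the control array, median -0.54), with Gzmc at -2.06, Gzmd at least 2.84-fold lower, Il2rb at -1.27 and Klrd1 at 1.21. The lower ones were 3, 2 and 2 after quantile normalization, median centring and removal of the trend, and 2 with the floor at the 60th percentile. The B and T cell genes Cd3e, Cd4, Cd8a, Cd79a, Cd79b and Ms4a1 were at the floor on both arrays. Of 13 epithelium markers, 4 were lower and 1 higher (summed signal 2281 on the knockout-labelled array and 3181 on the control array, median -0.51), with Krt18 at -2.20, Cldn3 at -1.74, Cldn10 at -1.71 and Ehf at 1.37, and Krt19 was at the floor on both arrays. By any amount 9 of the 13 were lower. Higher within 2-fold were Foxa2 (0.75), Krt8 (0.64, with 0.60 and 0.56 at its other probe sets) and Cdh1 (0.58). With the floor at the 60th percentile 2 epithelium markers were lower and 0 higher, and 2 were higher under each of the 3 other scalings. Of 15 stroma markers, Hoxa11 (-1.85) was lower by that size and none higher (summed signal 37636 on the knockout-labelled array and 28272 on the control array, median 0.0027). Of 22 measured stroma probe sets, 3 were past 2-fold lower and none higher, against 13.9% and 6.84% of all measured probe sets. They include dimmer probe sets of Pdgfra (-1.70) and Col1a1 (-1.26). In RNA pooled from many cells, fewer cells of a type and less RNA per cell cannot be told apart, and the part of these markers and of the RNA ends in the antigen presentation values was not tested.

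**Figure D5:**
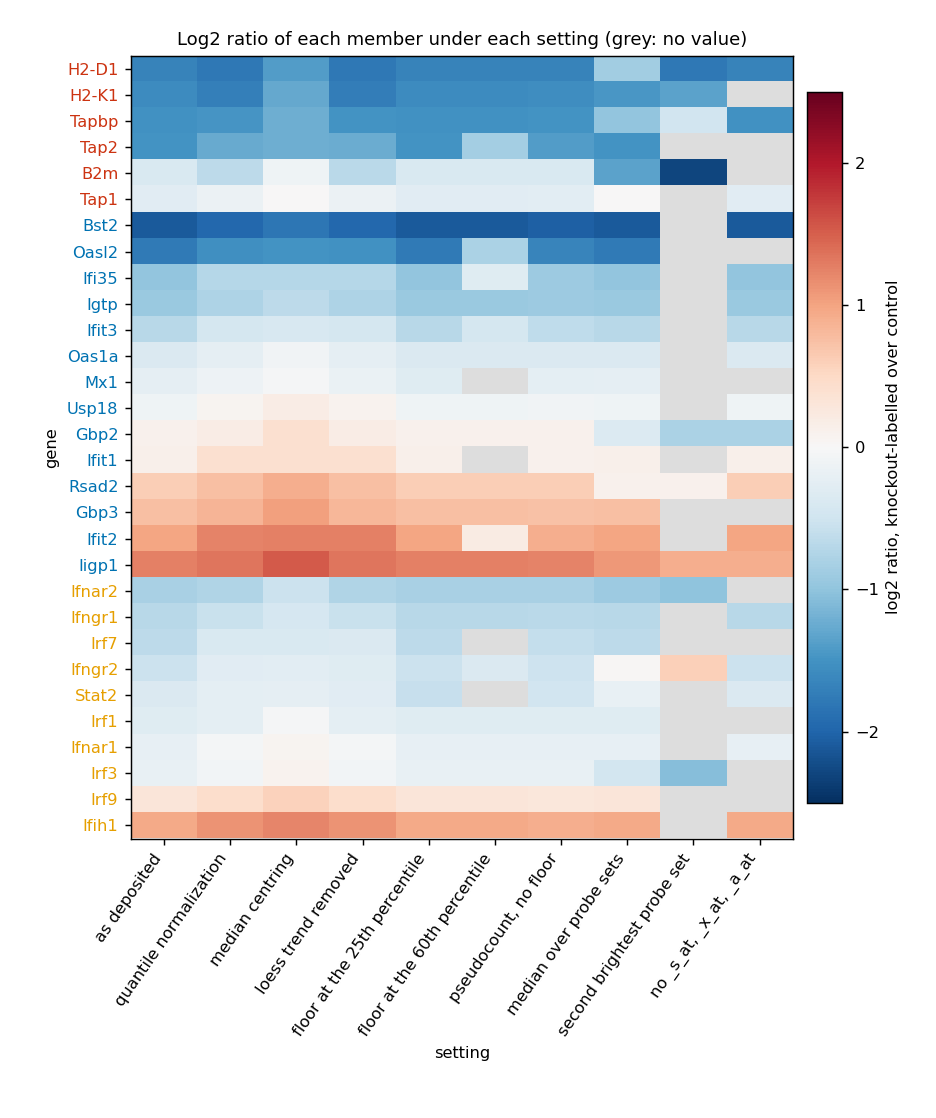
Log2 ratio (colour, knockout-labelled over control) of each member compared, in rows with the names coloured by role, as deposited and under 9 other settings, in columns. H2-K1, H2-D1 and Bst2 stay blue in every setting that gives them a value and Iigp1 stays red, while genes near 0, such as Usp18 and Gbp2, change sign.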

How the data were processed

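The members, gene lists and rules were chosen with earlier results of these data known. Cells pooled over 3 mice per group gave the RNA, which was extracted with Trizol and RNeasy and labelled with the Affymetrix 3' Express kit, per the labels' protocols. The deposited values are intensities, 1 MAS5 signal per probe set, made in Affymetrix Expression Console version 1, per the submitters' processing notes. The 2% trimmed mean was 150.1 on each array, and the authors' scaling, with a target not given in the sources used here, was kept. Of 22690 probe sets, 64 are controls, 20380 have 1 gene symbol in the platform annotation and were used, 691 have several (4 of these include a member) and 1555 have none here. Symbols were updated through RefSeq gene identifiers (GRCm38.p6). Signals were floored at 19.7, put on a log2 scale and read at the probe set of highest mean signal. All 31 members are named, as are further pathway genes past 2-fold and up to 4 per marker list. Exceptions chosen after their values were seen are Calr, Canx, Psmb10, the GTPases within 2-fold, Ptprc, C1qb, Vim, Pdgfra, Col1a1, the higher endothelium, epithelium and myeloid markers and genes listed as at the floor. With 1 array per group there was no test, and the number of arrays limits the precision. The size rule and the trend removal were tested on simulated data. Python 3.11.15, pandas 2.3.3 and Biopython 1.88 were used.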

Additional observations from a re-analysis of the deposited data

How the results depend on the processing

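Since each group has a single array, no replicate can be left out, and there is no spread between mice and no depth, and signals near 19.7 cannot be ordered. No paired analysis was possible because each group has 1 array. Over the 9 other settings, the 7 members past 2-fold gave 57 values, all of the same sign and 50 of them past 2-fold. Many of these repeat the deposited value, since a setting that does not touch a gene's reading cannot change it. The lower floor, for example, left all 7 values as they were. The count is therefore no measure of independent agreement. The causes of the shifts below were not tested. Settings that give no value for a list or gene are left out.

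After quantile normalization, the members at least 2-fold higher were 3 in all, 2 effectors and 1 signalling factor. Of the further effectors, 3 were then at least 2-fold lower and 4 higher (median -0.038), and the further signalling genes had a median of 0.35. After removal of the trend of ratio on signal, the members at least 2-fold higher were 3 in all, 2 effectors and 1 signalling factor, the further effectors had 3 lower and 4 higher (median -0.033), and the further signalling genes had a median of 0.26. The stroma median was -0.16 under the first of these settings and -0.018 under the second. After median centring, 4 members were at least 2-fold higher (3 effectors, 1 signalling factor), and the median was -0.093 for all members and 0.073 for the effectors. The further effectors then had 2 lower and 5 higher (median 0.039), the further signalling genes a median of 0.42, and the further antigen presentation genes 3 lower (median -0.24). Of all genes, those at least 2-fold lower were 9.54%, 9.27% and 7.79% after quantile normalization, trend removal and median centring. Those at least 2-fold higher were 8.22%, 8.19% and 13.3%, in the same order.

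With the floor at the 25th percentile, 5 further signalling genes were at least 2-fold lower and the further antigen presentation median was -0.31. With it at the 60th percentile, 1 effector was lower and the antigen presentation median was -1.18, while the further effectors had 2 lower and 1 higher (median -0.012) and the further signalling genes 1 lower. Where a gene was given the median of its probe sets, the antigen presentation median was -1.17 and no further signalling gene was at least 2-fold higher (0 of 18). Of all genes, those at least 2-fold lower were 13.1%, 9.28% and 11.2% under the lower floor, the higher floor and the probe set median. Those at least 2-fold higher were 6.73%, 6.04% and 3.32%, in the same order.

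At the second brightest probe set, which only 10 members have measured, 0 members were at least 2-fold higher and the median was -0.90. Of all genes read at that probe set, 15.0% were lower and 7.15% higher by 2-fold or more. There the effectors had 0 lower and 0 higher (median 0.10, 3 genes), the signalling factors 2 lower (median -1.01), the further effectors 0 lower (median 0.069), the further signalling genes 0 higher, the further antigen presentation genes 0 lower, and the epithelium median was 0.60. Without _s_at, _x_at and _a_at probe sets, 3 of 19 members were lower and 0 higher, with 1 effector and 2 of 3 antigen presentation genes lower and 0 effectors higher. Of all genes so read 15.1% were lower and 5.72% higher, so the lower members were near the share of all genes. The further signalling genes then had 1 higher (median -0.26), the further antigen presentation genes 3 lower, and Socs3 a log2 ratio of -0.12.

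At 1.5-fold, 12 members were lower and 5 higher (effectors 5 and 4, signalling factors 3 and 1), further effectors 12 and 6, further signalling genes 6 lower, and further antigen presentation genes 1 higher. At 3-fold, 3 members were lower and 0 higher (0 effectors higher, 1 antigen presentation gene lower), further effectors 0 and 1, further signalling genes 1 and 2, and further antigen presentation genes 2 lower. The shares of all genes past 1.5-fold and past 3-fold were not counted, so the counts at these sizes cannot be set against all genes.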

Other observations

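H2-K1 and H2-D1 lie on mouse chromosome 17 with many genes between them, and most of those compared were lower on the knockout-labelled array. The list was made after the data were seen, from the order of genes in the GRCm38.p6 table, and leaves out all H2 genes, members and further pathway genes, but not markers. Of 103 such genes, 54 had a probe set and 40 were compared, of which 14 were lower and 1 higher by 2-fold or more on the knockout-labelled array, against 13.0% and 6.21% of all genes. By any amount 32 of the 40 were lower, against 55.3% of all genes, and the median log2 ratio was -0.71, against -0.10 for all genes. The lowest were Ehmt2, a histone methyltransferase (signals of 36.9 knockout-labelled and 205 control, log2 ratio -2.48), Aif1, a myeloid marker (at least 4.68-fold lower), Tnxb, a matrix glycoprotein (198 knockout-labelled and 674 control, -1.77), and Bag6, a chaperone (-1.74). The highest were Abhd16a (1.09), the heat shock gene Hspa1b (0.82) and the RNA helicase Ddx39b (0.48). The genes lower by 2-fold or more were 11, 9 and 10 of 40 after quantile normalization, median centring and removal of the trend, and 5 of 27 with the floor at the 60th percentile. Of all genes 9.54%, 7.79%, 9.27% and 9.28% were lower by that size under these settings, in that order. The median was -0.50 after quantile normalization, -0.50 after removal of the trend of ratio on signal and -0.47 after median centring, where that of all genes was 0.03, 0.02 and 0.16. At the second brightest probe set all 8 genes measured were lower and none was past 2-fold (median -0.24, against -0.15 for all genes).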
